A study of Mus musculus with 19 samples.

Results

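The 36 genes described here encode the core machinery of macroautophagy, and they were taken by symbol from the 24348 genes counted in each of 19 RNA sequencing libraries of mouse perigonadal fat. All 36 symbols were found, and all 36 passed the filter on low counts, which kept 16015 genes. The members were grouped by role: 5 genes of the initiation kinase complex, 6 of the phosphatidylinositol 3-kinase (PI3K) complexes, 4 that read the PI3K product or transfer lipid, 10 of the conjugation systems, 5 of the Atg8 family, 5 cargo receptors and the transcription factor gene Tfeb.

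Macroautophagy wraps cytoplasm in a double membrane and delivers it to lysosomes, and nutrient withdrawal is its classical trigger. The Ulk kinase complex starts the process, a lipid kinase complex marks the nascent membrane, and enzymes resembling the ubiquitin cascade couple Atg8-family proteins to lipid on that membrane. Cargo receptors bind both the cargo and the coupled Atg8 proteins, and TFEB is a transcription factor of autophagy and lysosome genes whose activity is set largely by where it sits in the cell. In adipose tissue the pathway is known for its part in fat cell development and in the turnover of mitochondria. Flux through the pathway is governed mainly by protein modification, and only messenger RNA was measured here.

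Whole perigonadal fat was sampled from C57BL/6 mice, whose ages the labels do not give. Weight gain was driven either by a high-fat diet (HFD 60%) or by Ensure, a liquid nutritional drink, and tissue was taken at peak weight, fed or after 24 hours without food. The groups were HFD fed (n = 4, titled ALO), HFD fasted (n = 4, ALOneg), Ensure fed (n = 6, OIO) and Ensure fasted (n = 5, OIOneg); no lean or chow-fed group was used here. Each library is called by its group and its title number, and values are listed in the order 21, 22, 25 and 27 for HFD fed, 23, 24, 26 and 28 for HFD fasted, and 2, 5, 7, 8 and 17 for Ensure fasted; the 6 Ensure fed libraries are given by their lowest, median and highest value. Since the labels do not say whether every library comes from an animal of its own, the p-values speak of the spread between libraries, which may be technical.

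Reads counted in genes ran from 12823469 to 22552633 per library (median 20228174), and levels are given in CPM, the usual count scaled to the library's total, adjusted by the trimmed mean of M-values (TMM). In every library all 8 adipocyte markers were detected, and their summed level ran from 9570 CPM in Ensure fasted 5 to 25000 CPM. A set of 5 libraries stood apart by 11 marker genes of the epididymis and of spermatids: HFD fasted 24, Ensure fed 10 and 12, and Ensure fasted 2 and 5 held 193 to 10800 CPM of them (without TMM scaling), and the other 14 held at most 87.8 CPM. These are called tract-rich below. Ensure fasted 5 also carried 6460 CPM over 4 smooth muscle markers, against at most 607 CPM in the other 18 libraries. All 8 HFD libraries were run in sequencing lane 7, 4 of the 6 Ensure fed libraries in lane 6 and 4 of the 5 Ensure fasted libraries in lane 5. Ensure fed 18 was the 1 Ensure library in lane 7, and no fasted Ensure library was, so lane is nearly confounded with diet. Because the tissue is a mixture, fewer cells of a type and less RNA per cell cannot be told apart in any value below.

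Transcript levels of the machinery were close between the 4 groups. The ratio of the highest to the lowest group mean lay under 1.3 for 25 of the 36 genes (median 1.2, lowest 1.07), and it was over 1.5 for 3 genes, Gabarapl1 (1.8), Tfeb (2.08) and Atg4a (2.38). This ratio was not computed over all genes, so whether such closeness is particular to the members was not tested. In the fit over all genes (edgeR quasi-likelihood test, called at a Benjamini-Hochberg adjusted p under 0.05 over the 16015 genes), no member was called for fasting with HFD, where 1.22% of all genes were called. At an unadjusted p under 0.05 the HFD contrast held 3 members, Sqstm1 above and Atg4b and Pik3r4 below 0, or 8.33% of the members against 14.8% of all genes, and DESeq2 called 1 member, Sqstm1, beside 3.66% of all genes. Fasting with Ensure gave 2 members called higher and 3 called lower. These are 5.56% and 8.33% of the members, against 10.6% of all genes called higher and 9.77% called lower, so both shares lay below those of all genes. With library size alone in place of TMM the split was 5 higher and 3 lower. That scaling moved the log2 fold changes of all genes by a median of 0.053, and the share of all genes it called is not given here. With sequencing lane as a term edgeR called 0 members, beside 4.75% of all genes. At an unadjusted p under 0.05 the Ensure contrast held 33.3% of the members and 36% of all genes. The median log2 fold change of the members was -0.05 with HFD and 0.04 with Ensure, beside 0.06 and 0.11 over all genes tested.

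No member was called for the difference between the fasting responses under the 2 diets, by edgeR (0% of all genes called) or by DESeq2 (0.381%). At an unadjusted p under 0.05 this contrast held 4 members (Pik3r4 and Ulk2 above 0, Atg3 and Atg7 below), or 11.1% against 7.71% of all genes. A call with one diet and none with the other is therefore no sign that the diets differ. The standard errors were small beside those of other genes: their median over the members was 0.12 on the log2 scale with HFD and 0.11 with Ensure, against 0.21 and 0.18 over all genes. With HFD 35 of the 36 fold changes lay within 0.5 of 0 on the log2 scale, beside 76.3% of all genes. With Ensure 32 did, beside 68.8% of all genes.

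**Figure D1:**
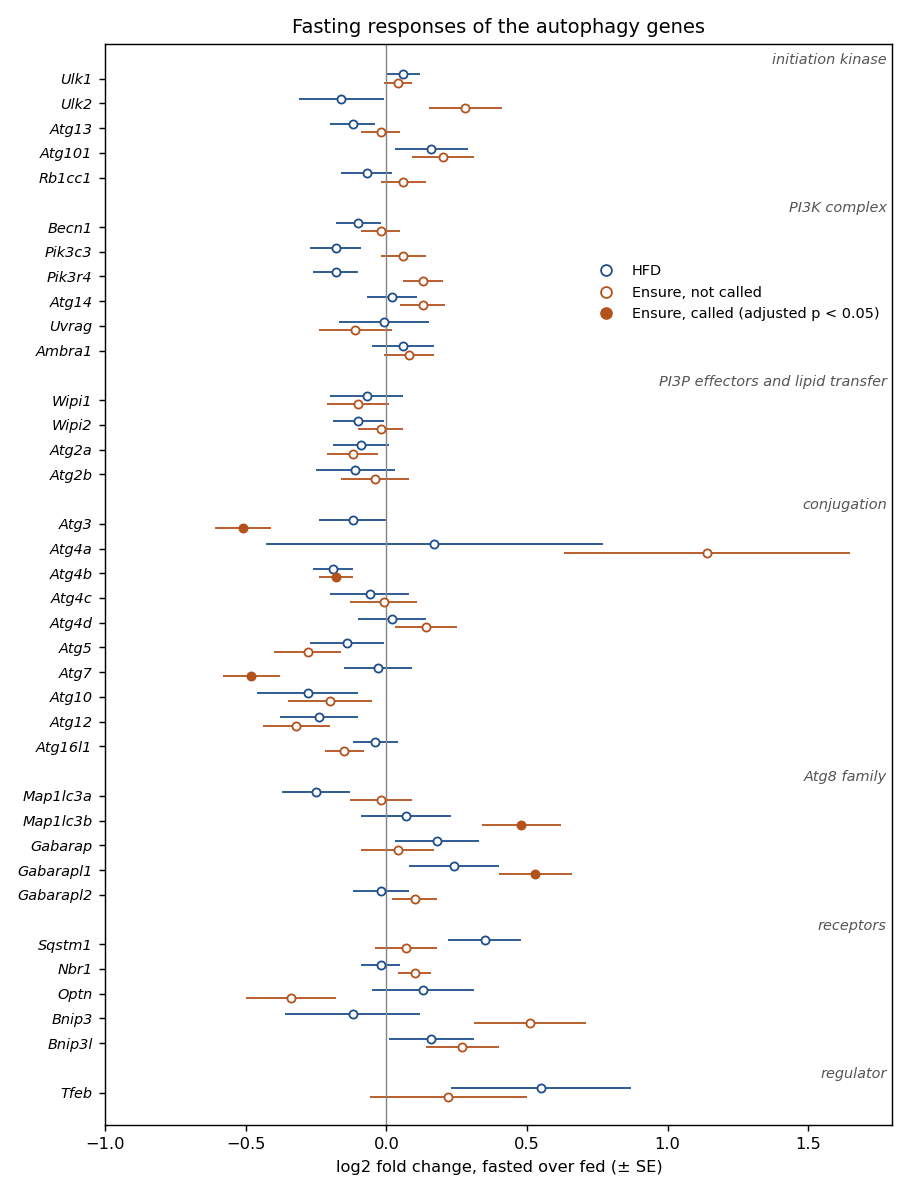
Log2 fold change of fasted over fed (x axis, bars ± SE) for each of the 36 genes, grouped by role, with HFD in blue and Ensure in orange; filled points passed an adjusted p of 0.05. The 5 filled points are all from Ensure, with Atg3, Atg7 and Atg4b to the left of 0 and Map1lc3b and Gabarapl1 to the right, and no HFD point is filled.

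The initiation complex showed no call in either fasting contrast. Ulk1, the kinase that receives signals from mTORC1 and AMPK, measured 69.1, 69.8, 68.9 and 71.7 CPM in the HFD fed libraries and 75.0, 72.0, 65.9 and 77.9 CPM in the HFD fasted ones. With Ensure its lowest, median and highest fed values were 72.2, 76.5 and 79.3 CPM, and the fasted libraries gave 76.3, 84.1, 77.7, 74.7 and 77.9 CPM. Fed and fasted values overlapped within each diet, and the log2 fold changes were 0.06 ± 0.06 (SE) with HFD and 0.04 ± 0.05 with Ensure (edgeR adjusted p = 0.696 and 0.653). These were the smallest standard errors of any member in both contrasts. The other 4 genes of the complex, Ulk2, Atg13, Atg101 and Rb1cc1 (a scaffold protein), ranged from -0.16 to 0.16 with HFD and, with Ulk1 included, from -0.02 to 0.28 with Ensure.

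Ulk2, chosen here after its values were seen, was the gene of that complex with the highest value in the Ensure contrast. Its fed libraries gave 133, 143 and 157 CPM as lowest, median and highest, and the fasted ones 158, 127, 214, 182 and 197 CPM. In 4 of the 5 fasted libraries Ulk2 lay above every fed one, and in Ensure fasted 5 it lay below them all. The fold change was 0.28 ± 0.13 on the log2 scale and was not called (edgeR adjusted p = 0.119).

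Neither fasting contrast called any of the 6 PI3K complex genes, which were Becn1, Pik3c3, Pik3r4, Atg14, Uvrag and Ambra1. Their log2 fold changes ran from -0.18 to 0.06 with HFD and from -0.11 to 0.13 with Ensure. Between the diets, Pik3c3, the catalytic lipid kinase, was called lower in Ensure fed than in HFD fed fat. It measured 39.0, 42.5, 39.5 and 43.5 CPM in the HFD fed libraries, and 31.6, 33.1 and 35.8 CPM as lowest, median and highest of the Ensure fed ones. All 4 HFD values lay above all 6 Ensure values, and the difference was -0.29 ± 0.08 on the log2 scale (edgeR adjusted p = 0.0476). After fasting the Pik3c3 values overlapped, with 40.7, 33.8, 36.9 and 33.4 CPM for HFD and 32.2, 30.6, 34.0, 39.7 and 38.3 CPM for Ensure. That fed call was lost in each of 10 fits that left out 1 library (adjusted p from 0.0583 to 0.202). Pik3r4, the regulatory subunit that holds Pik3c3, was the one member whose Ensure fasted values (46.4 to 51.5 CPM) all lay above the fed ones (43.6 to 45.3 CPM). Its fold change was 0.13 ± 0.07 and was not called (edgeR adjusted p = 0.173); 5.68% of all genes were likewise higher without overlap.

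Wipi1 and Wipi2, which bind the lipid made by the PI3K complex, and Atg2a and Atg2b, which pass lipid to the growing membrane, were the group with the least movement. All 8 of their fasting fold changes were below 0, between -0.12 and -0.02, and none was called.

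The conjugation genes held all 3 members that fell with fasting under Ensure, Atg3, Atg7 and Atg4b. Atg7 is the activating enzyme shared by both conjugation systems, Atg3 is the conjugating enzyme that hands Atg8 proteins to lipid, and Atg4b is a protease that primes Atg8 proteins and can also remove them. Of the 10 genes, 8 had a fold change below 0 with Ensure and 8 with HFD. Over all 36 members 17 and 23 were below 0, and over all 16015 genes 6321 and 6720. The median of the 10 genes was -0.19 with Ensure and -0.09 with HFD on the log2 scale, and HFD gave no call.

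Atg3 measured 35.3, 34.6, 41.3, 47.2 and 42.5 CPM in the Ensure fasted libraries, and its lowest, median and highest values in the Ensure fed ones were 54.4, 57.0 and 59.7 CPM. All 5 fasted values lay below all 6 fed values. Atg3 fell by 0.51 ± 0.10 (SE) on the log2 scale (edgeR adjusted p = 0.00287). In the HFD libraries Atg3 gave 47.9, 48.1, 54.3 and 49.2 CPM fed and 47.0, 37.6, 40.1 and 59.4 CPM fasted. There HFD fasted 28 was the highest of the 8 and the other 3 fasted libraries were the lowest, so the groups overlapped, and the fold change was -0.12 ± 0.12 (adjusted p = 0.678).

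Atg7 followed the same order with Ensure, at 57.9, 45.7, 66.1, 67.9 and 61.3 CPM fasted, against 77.8, 82.9 and 88.9 CPM as lowest, median and highest fed. The groups did not overlap, and Atg7 fell by 0.48 ± 0.10 on the log2 scale (edgeR adjusted p = 0.00429). With HFD, Atg7 measured 73.1, 80, 80.6 and 79.0 CPM fed and 79.7, 68.2, 63.9 and 95.2 CPM fasted, a fold change of -0.03 ± 0.12 (adjusted p = 0.927). HFD fasted 28 was again the highest value of all. The difference between the diets' responses was -0.46 ± 0.16 for Atg7 and -0.40 ± 0.16 for Atg3, neither of which was called (edgeR adjusted p = 0.542 and 0.577).

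Atg4b gave 35.7, 42.2, 38.7, 41.6 and 39.9 CPM in the Ensure fasted libraries, below the fed range of 43.1 to 47.2 CPM (median 45.1 CPM). It fell by 0.18 ± 0.06 on the log2 scale, a change of small size (edgeR adjusted p = 0.0405). With HFD the fed values were 45.5, 40.3, 39.7 and 39.9 CPM and the fasted ones 37.3, 34.5, 34.2 and 39.6 CPM. These did not overlap either, and the fold change was about as large, -0.19 ± 0.07, but it was not called (adjusted p = 0.225). Atg4b was the one member whose HFD groups were apart, where 6.21% of all genes were lower without overlap; with Ensure 3 members (Atg3, Atg7 and Atg4b) were lower without overlap, beside 9.28% of all genes.

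The partners of Atg7 and Atg3 had lower means after fasting with Ensure but were not called. Atg12, the ubiquitin-like protein of the other system, had a fold change of -0.32 ± 0.12 and Atg5, to which it is joined, of -0.28 ± 0.12 (edgeR adjusted p = 0.0707 and 0.0972). Atg12 values were 63.9, 71.1, 88.3, 94.3 and 77.1 CPM fasted against a fed range of 89.5 to 109.7 CPM, and 1 fasted library, Ensure fasted 8, reached into that range. Atg4a had a mean that rested on 1 library. It measured 12.1, 78.8, 7.11, 8.23 and 7.6 CPM in the Ensure fasted libraries, and the value of 78.8 CPM was in Ensure fasted 5, the library richest in tract and smooth muscle markers. Its fold change of 1.14 ± 0.51 was not called (edgeR adjusted p = 0.119), and it was -0.34 without the tract-rich libraries.

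**Figure D2:**
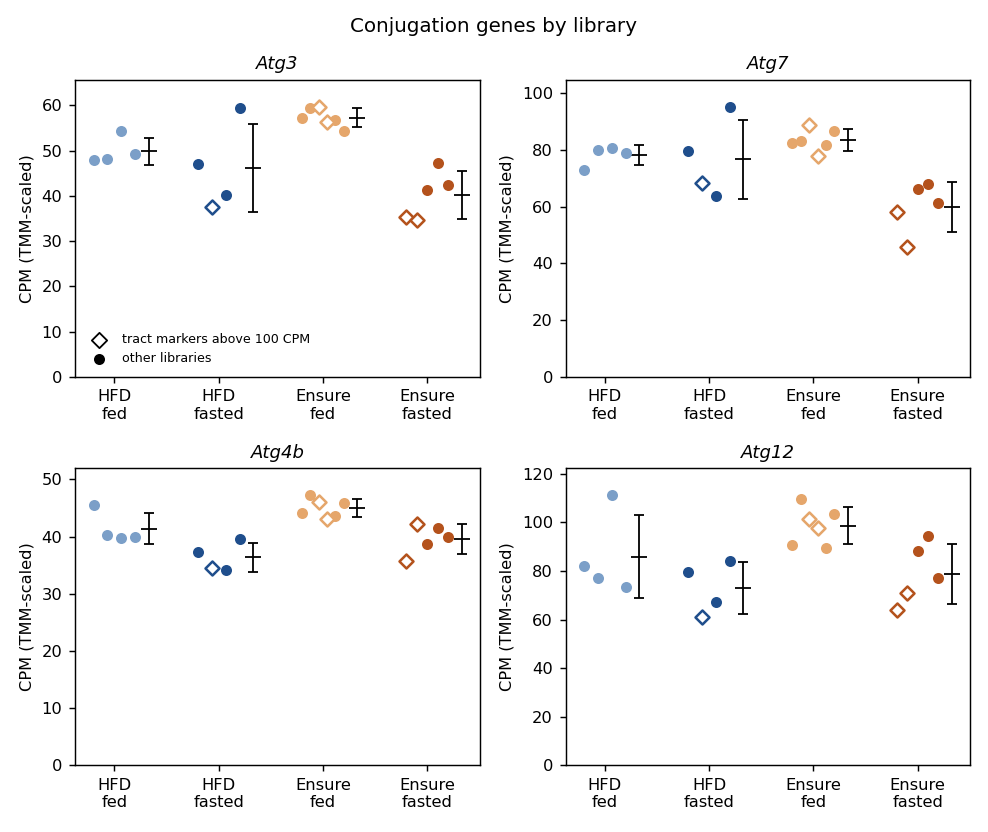
CPM (TMM-scaled, y axis from 0) of Atg3, Atg7, Atg4b and Atg12 in each library of the 4 groups, with the mean ± SD beside the points; open diamonds are the tract-rich libraries. In Atg3, Atg7 and Atg4b every Ensure fasted point lies below every Ensure fed point, and in Atg12 Ensure fasted 8 at 94.3 CPM reaches into the fed range.

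Among the Atg8-family genes, which encode the proteins coupled to the autophagosome membrane, Gabarapl1 and Map1lc3b rose with fasting under Ensure and the other 3 showed no call. In the same contrast 3 of 5 stromal markers, 4 of 4 smooth muscle markers and 1 of 2 tested skeletal muscle markers were called higher, beside 10.6% of all genes. Of 5 endothelial markers 1 was called lower, beside 9.77% of all genes, and the remaining marker lists gave no call. The summed stromal level ran from 1800 to 2590 CPM fed and from 2050 to 3470 CPM fasted. The summed smooth muscle level was 337 to 477 CPM fed. It was 6460 CPM in Ensure fasted 5 and 278 to 607 CPM in the other fasted libraries. The part of these cells in the Ensure fasting changes was not tested. Gabarapl1 measured 168, 129, 245, 232 and 212 CPM in the Ensure fasted libraries and 125, 137 and 153 CPM as lowest, median and highest of the fed ones. In 4 fasted libraries the value was above every fed one, and Ensure fasted 5 lay inside the fed range. Gabarapl1 rose by 0.53 ± 0.13 on the log2 scale (edgeR adjusted p = 0.0106). In HFD fat it gave 191, 224, 179 and 237 CPM fed and 247, 250.2, 218 and 263 CPM fasted, with overlap at HFD fasted 26 and a fold change of 0.24 ± 0.16 that was not called (adjusted p = 0.493).

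Map1lc3b, whose protein product is the standard autophagosome marker, gave 139, 123, 213, 210.5 and 217 CPM in the Ensure fasted libraries. Its Ensure fed values were 110, 129 and 144 CPM as lowest, median and highest. Ensure fasted 7, 8 and 17 lay above the fed range, while the tract-rich fasted libraries 2 and 5 lay inside it. Map1lc3b rose by 0.48 ± 0.14 on the log2 scale (edgeR adjusted p = 0.0209). The HFD values were 132, 171, 134 and 165 CPM fed and 161, 159, 149 and 164 CPM fasted, all fasted ones within the fed range, at 0.07 ± 0.16 (adjusted p = 0.848). No difference between the diets' responses was called for either gene, at 0.30 ± 0.21 for Gabarapl1 and 0.41 ± 0.21 for Map1lc3b (adjusted p = 0.796 and 0.665).

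Map1lc3a, the close relative of Map1lc3b, did not share its change. It measured 145, 183, 189 and 195 CPM in HFD fed and 149.7, 170.0, 148 and 129 CPM in HFD fasted libraries. With Ensure the fed values were 135, 158 and 179 CPM as lowest, median and highest, and the fasted ones 174, 129.5, 175, 134 and 164.5 CPM. Fed and fasted overlapped within each diet, with fold changes of -0.25 ± 0.12 for HFD and -0.02 ± 0.11 for Ensure (edgeR adjusted p = 0.348 and 0.918). The Ensure value crossed 0 under other scaling, to 0.03 with library size alone. Whether Map1lc3a and Map1lc3b differed in their response was not tested.

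Gabarap was highest in 1 HFD fasted library. Its values were 254, 246, 259 and 253 CPM in HFD fed and 282, 225, 236 and 404 CPM in HFD fasted libraries, the last being HFD fasted 28. With Ensure it gave 227, 245 and 255 CPM as lowest, median and highest fed, and 206, 224, 273, 294 and 252 CPM fasted. The groups overlapped in both diets, and neither fold change was called, at 0.18 ± 0.15 with HFD and 0.04 ± 0.13 with Ensure (edgeR adjusted p = 0.582 and 0.863).

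Gabarapl2 was level throughout. It measured 14.4, 15, 12.4 and 13.6 CPM in HFD fed, 13.7, 12.6, 13.5 and 14.8 CPM in HFD fasted, 12.5, 14.2 and 15.5 CPM as lowest, median and highest in Ensure fed, and 13.9, 15.7, 15.1, 17.0 and 13.9 CPM in Ensure fasted libraries. All groups overlapped, and its fold changes were -0.02 ± 0.10 with HFD and 0.10 ± 0.08 with Ensure (edgeR adjusted p = 0.925 and 0.42).

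Gabarapl1 also differed between the diets in fed tissue, and it was the member with the lowest adjusted p in that contrast. All 4 HFD fed libraries (179 to 237 CPM) lay above all 6 Ensure fed ones (125 to 153 CPM), and the difference of Ensure against HFD was -0.61 ± 0.14 on the log2 scale (edgeR adjusted p = 0.0222). Gabarapl1 and Pik3c3 were the 2 members called between fed groups, both lower with Ensure, or 5.56% of the members against 2.17% of all genes. There were 7 members that did not overlap between the fed diets: Atg3 and Ulk1 were higher with Ensure and Atg14, Gabarapl1, Pik3c3, Pik3r4 and Sqstm1 were lower, where 5.89% and 7.37% of all genes were higher or lower without overlap. The Gabarapl1 call was lost when HFD fed 21, 22 or 27 or Ensure fed 1 was left out (adjusted p up to 0.103). In lane 7, which held all the HFD libraries, the 1 Ensure fed library (18) measured 141 CPM of Gabarapl1 and 33.5 CPM of Pik3c3, below all 4 HFD fed values of each. With lane as a term the differences were -0.56 for Gabarapl1 and -0.29 for Pik3c3, and neither was called (edgeR adjusted p = 1 for both). Between these fed groups all 3 mast cell markers were called lower with Ensure (10 to 17 CPM summed, against 50.2 to 146 CPM with HFD). So were 4 of 6 markers of lipid-associated macrophages, described below (93.6 to 200 CPM summed, against 560 to 1820 CPM with HFD). Of 5 stromal markers 1 was called higher and 2 lower. Over all genes, 335 of 16015 were called higher and 2.17% lower. The part of these cells in the Gabarapl1 and Pik3c3 differences was not tested.

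After fasting the Gabarapl1 values of the diets overlapped, with Ensure fasted 7 and 8 (245 and 232 CPM) among the HFD ones and the other 3 Ensure libraries below them. The Ensure fasted mean was 197 ± 48.0 CPM (SD, n = 5) beside 245 ± 18.9 CPM (n = 4) in HFD fasted fat. The Ensure fed mean, 136 ± 10.5 CPM (n = 6), was thus the low one of the 4, with HFD fed at 208 ± 27.2 CPM (n = 4).

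**Figure D3:**
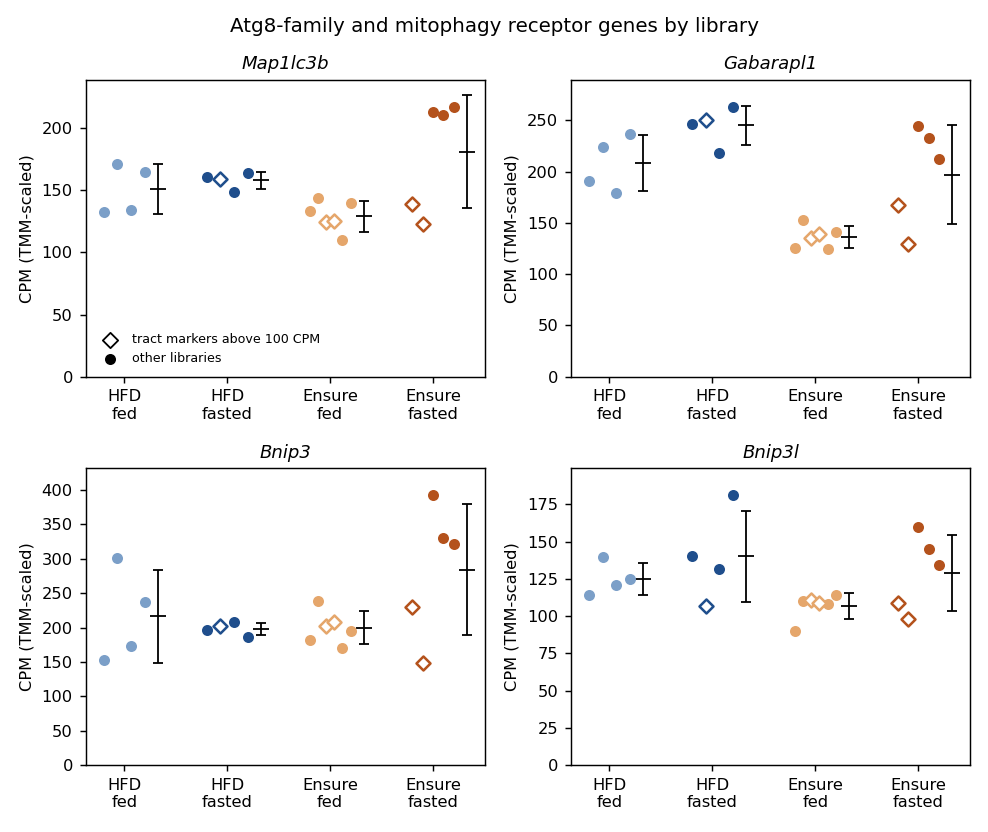
CPM (TMM-scaled, y axis from 0) of Map1lc3b, Gabarapl1, Bnip3 and Bnip3l in each library of the 4 groups, with the mean ± SD beside the points; open diamonds are the tract-rich libraries. In each panel the 3 Ensure fasted libraries drawn as filled circles lie above all 6 Ensure fed ones, and the Ensure fasted diamonds lie below those circles.

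Upstream windows of called genes are shown for the pair that fell most and the pair that rose, since members that move together invite a look at shared sequence. Each line gives 250 bases upstream of an annotated start in RefSeq (GRCm38.p6). The counts were made on mm9, so genes were matched by symbol, and 29 of the 36 members had an entry. A gene can have several annotated starts, and no other window of these genes is shown. Whether the starts shown are the main ones, or those used in this fat, was not tested. Capitals mark CACGTG, the E-box core to which TFEB-family factors and others bind.
Atg3, chr16:45158579-45158828, strand +: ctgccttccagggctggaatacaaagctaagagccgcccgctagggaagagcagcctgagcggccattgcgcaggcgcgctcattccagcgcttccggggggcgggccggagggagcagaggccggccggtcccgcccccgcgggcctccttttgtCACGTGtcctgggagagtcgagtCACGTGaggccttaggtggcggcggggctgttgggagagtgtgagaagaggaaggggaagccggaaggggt
Atg7, chr6:114670846-114671095, strand +: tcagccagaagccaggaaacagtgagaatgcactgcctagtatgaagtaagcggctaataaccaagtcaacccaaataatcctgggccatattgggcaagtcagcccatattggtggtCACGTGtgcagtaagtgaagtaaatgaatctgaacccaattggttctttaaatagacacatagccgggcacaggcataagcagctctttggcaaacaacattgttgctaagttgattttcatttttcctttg
Gabarapl1, chr6:129532942-129533191, strand +: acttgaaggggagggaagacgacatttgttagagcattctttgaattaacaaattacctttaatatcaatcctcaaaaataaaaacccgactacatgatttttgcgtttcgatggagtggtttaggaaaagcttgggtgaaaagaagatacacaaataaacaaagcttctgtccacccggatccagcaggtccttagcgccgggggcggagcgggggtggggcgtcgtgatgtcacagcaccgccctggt
Map1lc3b, chr8:121590188-121590437, strand +: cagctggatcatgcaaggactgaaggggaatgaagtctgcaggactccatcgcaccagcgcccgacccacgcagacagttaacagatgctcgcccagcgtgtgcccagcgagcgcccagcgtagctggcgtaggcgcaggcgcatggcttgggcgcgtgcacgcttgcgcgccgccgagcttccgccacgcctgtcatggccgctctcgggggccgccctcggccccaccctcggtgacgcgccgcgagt

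Atg3 held CACGTG at 94 and at 71 bases before the start used here and Atg7 at 132 bases, while the windows of Gabarapl1, Map1lc3b and Atg4b held none. Over all members with an entry, 4 of 29 genes (13.8%) held CACGTG in any of their windows, namely Atg3, Atg5, Atg7 and Bnip3. Of all 32851 single windows, 6.02% did. The 29 genes had 34 windows, so a share of genes stands here beside a share of windows. The median GC content was 60.0% in member windows and 52.4% in all. The FoxO motif TGTTTAC was in 0 of 29 members and 3.17% of all windows, and the ATF4 motif TGATGNAA in 0 of 29 and 3.45%; both strands were searched, and the motifs share no site. A match describes the letters of these windows alone.

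With all libraries, edgeR called none of the 5 cargo receptor genes for fasting with either diet, while DESeq2 called Sqstm1 higher with HFD. Their fold changes ran from -0.12 to 0.35 with HFD and from -0.34 to 0.51 with Ensure. Bnip3, a receptor of mitochondria that hypoxia is known to induce, had the highest value with Ensure. It measured 229, 149, 392, 329.9 and 321 CPM in the Ensure fasted libraries, against 170.5, 199 and 238 CPM as lowest, median and highest fed. Ensure fasted 7, 8 and 17 lay above every fed library and the tract-rich libraries 2 and 5 did not, and the fold change was 0.51 ± 0.20 (edgeR adjusted p = 0.0825). In HFD fat Bnip3 gave 153, 301, 173 and 237 CPM fed and 196, 203, 207 and 186 CPM fasted, with the fasted values inside a wide fed range and a fold change of -0.12 ± 0.24 (adjusted p = 0.812). Its relative Bnip3l, chosen here after its values were seen, gave 109, 98.3, 160, 145 and 134 CPM in the Ensure fasted libraries and 89.8, 109 and 115 CPM as lowest, median and highest fed. Its fold change was 0.27 ± 0.13 and was not called (adjusted p = 0.145).

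Sqstm1, the ubiquitin-binding receptor whose protein is itself degraded by autophagy, was the 1 member called between the fasted diets. It measured 552, 541.5, 452 and 735 CPM in HFD fasted and 364, 378, 466, 462 and 411 CPM in Ensure fasted libraries. The values of 3 HFD libraries lay above all Ensure ones and HFD fasted 26 lay among them, so the groups overlapped. The difference of Ensure against HFD was -0.45 ± 0.12 on the log2 scale (edgeR adjusted p = 0.0478), and 1 of 36 members is 2.78% beside 1.19% of all genes called lower in this contrast. No member's fasted values were apart between the diets, where 3.99% of all genes were. The fed values were 446, 427, 485 and 432 CPM with HFD and 354, 400 and 423 CPM as lowest, median and highest with Ensure, without overlap, at -0.18 ± 0.11 (adjusted p = 0.444). The fasted call was lost without HFD fasted 23 or 28 or Ensure fasted 2 or 17 (adjusted p up to 0.0923) and with lane as a term (-0.37, adjusted p = 1). For fasted tissue diet and lane cannot be told apart, since no Ensure fasted library shared the HFD lane. Fasting moved Sqstm1 by 0.35 ± 0.13 with HFD and 0.07 ± 0.11 with Ensure, neither of which was called by edgeR (adjusted p = 0.203 and 0.653).

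Tfeb varied more between libraries in HFD fasted fat than in the other groups. It measured 27.1, 22.1, 25.4 and 26.2 CPM in HFD fed libraries and 35.5, 17.7, 19.3 and 74.7 CPM in HFD fasted ones, where libraries 23 and 28 lay above the fed range and 24 and 26 below it. The Ensure values were 15.2, 16.4 and 23.0 CPM as lowest, median and highest fed, and 19.6, 16.1, 22.2, 24.3 and 20.8 CPM fasted. Tfeb was not called for fasting with HFD (0.55 ± 0.32) or Ensure (0.22 ± 0.28), nor between the diets fed (-0.51 ± 0.29) or fasted (-0.84 ± 0.30), with edgeR adjusted p of 0.439, 0.594, 0.379 and 0.136.

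Markers of lipid-associated macrophages, the cells that gather around dying fat cells in obese adipose tissue, varied over the same libraries. The summed level of Trem2, Gpnmb, Cd9, Spp1, Itgax and Atp6v0d2 was 1820, 560, 1540 and 1420 CPM in HFD fed libraries and 3520, 444, 962 and 7200 CPM in HFD fasted ones (23, 24, 26 and 28). It was 93.6 to 200 CPM in Ensure fed libraries and 172, 133, 214, 988 and 212 CPM in Ensure fasted ones. None of the 6 markers was at 0 in any library. All 6 had a lower mean with Ensure in fed and in fasted tissue (4 and 3 of them called lower, beside 2.17% and 1.19% of all genes). The library with the highest marker sum, HFD fasted 28, also had the highest level of 8 members: Tfeb (74.7 CPM), Sqstm1 (735 CPM), Gabarap (404 CPM), Gabarapl1 (263 CPM), Bnip3l (181 CPM), Atg7 (95.2 CPM), Atg5 (39.3 CPM) and Atg14 (26.1 CPM). It had the lowest level of 4 members: Ulk2 (101 CPM), Pik3r4 (37.5 CPM), Atg2b (36.4 CPM) and Map1lc3a (129 CPM). How many of all genes were highest or lowest in this library was not counted, so these counts show nothing particular to the members. The same library had the highest shares of reads in no feature (17.3%), of ambiguous reads (0.893%) and of reads not uniquely placed (27.7%) of all 19, against at most 16.6%, 0.842% and 26% in the others. The part of these cells and of read quality in the Tfeb, Sqstm1 and Gabarap values was not tested.

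**Figure D4:**
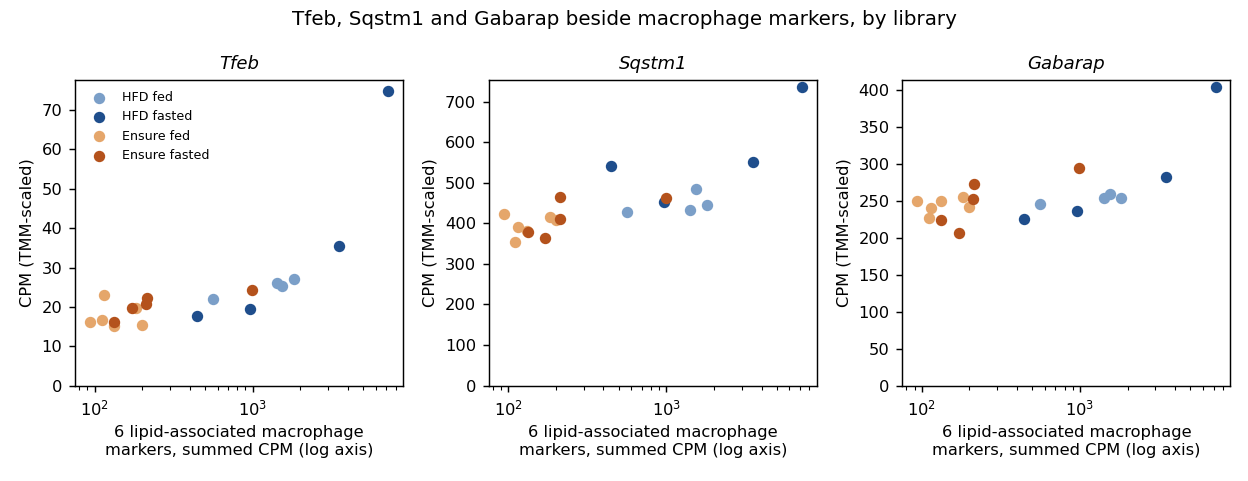
CPM (TMM-scaled, y axis from 0) of Tfeb, Sqstm1 and Gabarap against the summed CPM of 6 lipid-associated macrophage markers (log x axis), 1 point per library, coloured by group. HFD fasted 28 is the point at upper right in each panel, at 7200 CPM of marker sum and 74.7, 735 and 404 CPM of the 3 genes.

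The fasting response with Ensure was then read without the 5 tract-rich libraries, leaving 4 fed and 3 fasted. This gave 4 members called higher and 1 lower, beside 3.23% and 4.13% of all genes. Gabarapl1 was then higher by 0.74 and Map1lc3b by 0.68 on the log2 scale (edgeR adjusted p = 0.00436 and 0.0052), both larger than with all libraries. Bnip3 (0.80, adjusted p = 0.0307) and Bnip3l (0.46, adjusted p = 0.0435) passed the threshold as well; both were also called with library size alone. Atg3 was called lower at -0.40 (adjusted p = 0.0485), while Atg7 at -0.37 (adjusted p = 0.0533) and Atg4b at -0.19 (adjusted p = 0.158) were no longer called. Of the 36 fold changes 28 kept their sign, and 3 members were called in both fits.

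**Figure D5:**
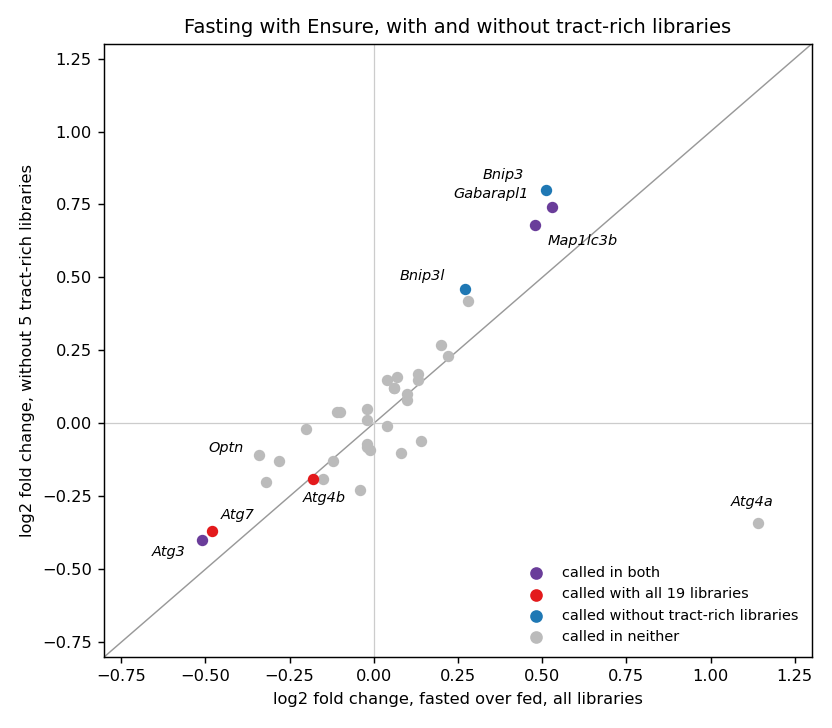
Log2 fold change of fasting with Ensure for the 36 genes from all libraries (x axis) and without the 5 tract-rich libraries (y axis), with the diagonal of equal values. Gabarapl1, Map1lc3b, Bnip3 and Bnip3l lie above the diagonal on the right, Atg3 and Atg7 lie above it on the left, nearer to 0 than before, and Atg4a moves from 1.14 to -0.34.

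When libraries with more than 20 CPM of Cdh16, an epithelial cadherin gene, were also left out, 11 libraries remained. With Ensure, Map1lc3b (0.60), Gabarapl1 (0.70) and Atg7 (-0.39) were called, with edgeR adjusted p of 0.0156, 0.0175 and 0.0395, beside 5.06% of all genes. With HFD, Tfeb was then called higher after fasting, by 1.14 (adjusted p = 0.0372), beside 3.57% of all genes called higher; the fasted side of that fit is HFD fasted 23 and 28, the 2 libraries with the highest macrophage marker sums. Between the fasted diets Tfeb (-1.28), Atg7 (-0.41) and Sqstm1 (-0.51) were called lower with Ensure and Bnip3 (0.88) higher, with adjusted p of 0.0173, 0.0351, 0.0492 and 0.0341, beside 6.1% and 4.37% of all genes.

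Sequencing lane was also nearly confounded with fasting among the Ensure libraries. With lane as a term, 0 members were called by edgeR for fasting with Ensure (7 at an unadjusted p under 0.05), where 4.75% of all genes were. The fold changes themselves were near those above, at -0.49 for Atg3, -0.46 for Atg7, -0.17 for Atg4b, 0.62 for Gabarapl1, 0.58 for Map1lc3b and 0.62 for Bnip3, with adjusted p of 0.061, 0.0845, 0.324, 0.066, 0.0793 and 0.244. Within lane 5 (1 fed and 4 fasted libraries) and within lane 6 (4 fed and 1 fasted) the log2 ratio of the group means was -0.53 and -0.45 for Atg3, -0.47 and -0.43 for Atg7, -0.16 and -0.17 for Atg4b, 0.62 and 0.62 for Gabarapl1 and 0.37 and 0.79 for Map1lc3b. Each of these 5 genes had the same direction in both lanes, with 1 library on one side of each ratio and no test. The genes were chosen by their calls in these same libraries. For Atg3, Atg7 and Atg4b, whose fed and fasted values did not overlap, any split by lane had to give that direction. The Ensure fasting calls of Atg3, Atg7 and Gabarapl1 held in all 11 fits that left out 1 library; that of Map1lc3b was lost without Ensure fasted 17 (adjusted p = 0.0528) and that of Atg4b without library 1 or 12 of the fed group or 17 of the fasted one (adjusted p up to 0.0605).

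The other genes of the pathway were read from 3 lists: 32 further autophagy genes, 29 genes of the mTORC1 and AMPK signalling that controls initiation, and 12 transcription factor genes. With HFD, fasting called 0 of them by edgeR (1.22% of all genes), with 6, 4 and 2 at an unadjusted p under 0.05 (14.8% of all genes). With Ensure, 5 of the 32 further autophagy genes were called higher and 1 lower, where 10.6% and 9.77% of all genes were. Wdr45, a relative of the Wipi genes, measured 44.6, 58.5, 65.4, 56.4 and 57.7 CPM in fasted libraries, all above the fed maximum of 40.1 CPM, and rose by 0.62 ± 0.10 on the log2 scale (edgeR adjusted p = 0.000518). Stbd1, which binds glycogen and is a receptor for its delivery to lysosomes, gave 21.3, 21.3, 25.8, 24.2 and 22.8 CPM against at most 14.6 CPM fed, and rose by 0.92 ± 0.19 (adjusted p = 0.00254). Calcoco1, a receptor of the endoplasmic reticulum, rose by 0.30 ± 0.07 (adjusted p = 0.00988), and Pink1 and Rubcn (listed under its older symbol) were the others called higher. Tax1bp1, a ubiquitin-binding receptor, fell by 0.31 ± 0.07 (adjusted p = 0.00405), from a fed range of 231 to 271 CPM to 192 to 217 CPM. Wdr45, Stbd1 and Calcoco1 were still called with lane as a term, at 0.69, 0.99 and 0.38 (edgeR adjusted p = 0.00966, 0.0402 and 0.0373). For the other genes named from the 3 lists, the fasting results with lane as a term are not given here, so their calls may not hold with it.

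In the mTORC1 and AMPK list, 1 of 29 genes (Stk11) was called higher and 6 lower with Ensure, again beside 10.6% and 9.77% of all genes. The 4 with the smallest p were all lower. Tbc1d7, a subunit of the complex that restrains mTORC1, fell by 0.45 ± 0.08, from 13.9 to 15.5 CPM fed to 9.9 to 12.0 CPM fasted (edgeR adjusted p = 0.00158). Prkag1, an AMPK subunit, fell by 0.30 ± 0.07, and Rragc and Rraga, the GTPases that bring mTORC1 to the lysosome, fell by 0.49 ± 0.12 and 0.26 ± 0.07 (adjusted p = 0.00791, 0.00951 and 0.0168). Prkaa2 and Rptor were the other 2. Members of the list that act for and against mTORC1 were thus both among those called lower.

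Of the 12 transcription factor genes 2 were called higher with Ensure and none lower, beside the same shares of all genes (10.6% and 9.77%). Foxo4 measured 60.9, 54.6, 82.5, 69.1 and 77.5 CPM fasted, above the fed range of 44.9 to 53.2 CPM, and rose by 0.50 ± 0.13 (edgeR adjusted p = 0.0121). Foxo3 gave 31.6, 37.3, 33.5, 35.5 and 28.0 CPM against 17.1 to 24.4 CPM fed, and rose by 0.68 ± 0.23 (adjusted p = 0.0458). FoxO factors are held out of the nucleus by insulin signalling and are known to drive autophagy genes in muscle. The Foxo3 call was kept in 1 of the 11 fits that left out 1 library. Between the diets, 2 genes of the 3 lists were called, 1 of 32 lower in fed and 1 of 29 higher in fasted tissue. Over all 16015 genes, 347 (2.17%) were called lower fed and 261 higher fasted, so these counts show nothing particular to the lists. Pink1, the kinase that marks damaged mitochondria, was lower in Ensure fed (180.2 to 201 CPM) than in HFD fed fat (222 to 357 CPM), by -0.65 ± 0.14 (adjusted p = 0.0148). That Pink1 call was lost without HFD fed 22 or 27 (adjusted p up to 0.1), without the tract-rich libraries (adjusted p = 0.0619) and with lane as a term (adjusted p = 1). Prkab2, an AMPK subunit, was higher in Ensure fasted than in HFD fasted fat by 0.51 ± 0.11 (adjusted p = 0.0252). Prkab2 was no longer called in a fit of these 2 groups alone (adjusted p = 0.286) or once lane entered the model (adjusted p = 1).

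Some of these counts can hold reads of another gene, or lack reads that HTSeq set aside as ambiguous (0.695 to 0.893% of reads). How the counting treated strand is not given in the sources used here, and exons of 11 members overlap a gene on the other strand, by 43.9% of exon bases for Becn1 (Cntd1), 28.3% for Gabarapl1 (1700101I11Rik), 22.3% for Bnip3 (Gm45507), 19.3% for Atg4d (Kri1), 17.6% for Uvrag (Gm45187) and 17.3% for Sqstm1 (Mrnip), by the GENCODE annotation. The other 5 overlap by at most 5.53%. How many reads these overlaps moved was not tested.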

How the data were processed

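Poly-adenylated RNA of 19 libraries was sequenced on a HiSeq2000, per the labels' protocols. The tools named in the submitters' processing notes are HTSeq 0.6.1, TopHat2 2.1 and bcl2fastq 1.8.4, with mm9 as the build, and whether counting used strand is not given in the sources used here. What the authors deposited are raw read counts by gene symbol. HTSeq's summary lines (13 to 17.3% of reads in no feature, 0.695 to 0.893% ambiguous, 20.7 to 27.7% not unique) entered neither library sizes nor tests. A count of 3, the level below which nothing was read as present, equals 0.124 to 0.21 CPM.

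Counts were tested with edgeR 4.0.16 (R 4.3.3, limma 3.58.1) by 1 quasi-likelihood fit of 4 groups, with TMM scaling (factors 0.92 to 1.131), filterByExpr at a minimum count of 10 and Benjamini-Hochberg adjustment over 16015 genes; the script was tested on simulated data. Alternatives were DESeq2 1.42.0, other scalings, no filter, a lane term, fits of the compared groups only and libraries left out, among them those with over 100 CPM of tract markers or over 20 CPM of Cdh16. Within-lane ratios are of mean CPM with 0.1 CPM added. Within groups, 37 library pairs differed by 7.04 to 288 in chi-square per gene, more than repeated sequencing of the same library would give. This check cannot tell whether libraries came from the same animal. The members and lists were chosen with earlier results of these data known. Values are given for members called in any contrast and, whatever their result, for the Atg8 family, Ulk1, Sqstm1, Bnip3 and Tfeb, and for at most 4 called genes of each other list and contrast; others are said to be chosen after their values were seen. Atg12, Atg5, Atg4a and Pik3r4 were also chosen so.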

Additional observations from a re-analysis of the deposited data

Results flagged for a closer look

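Among the 144 combinations of a member and a group, 11 held 1 library whose gap to the nearest other was large for the group's range (Dixon's test at 95%). Its nominal rate of 1 in 20 holds for independent values, and these members share the same libraries. The rate over all genes was not computed, so the count of 11 cannot be set against chance. Of the 11, 4 were in Ensure fasted 5, the library with the highest tract and smooth muscle marker sums and the lowest adipocyte sum (9570 CPM). There Atg4a was at 78.8 CPM (next 12.1), Atg2b at 67.1 CPM (next 48.1), Ambra1 at 64.5 CPM (next 49.1) and Atg4d at 19 CPM (next 14.8). Atg4a stood high in 2 further groups, at 17.5 CPM in HFD fasted 28 (next 9.13) and at 13.5 CPM in Ensure fed 10 (next 10.1). The other high values were Rb1cc1 at 70.9 CPM in HFD fasted 23 (next 63.7), Atg4b at 45.5 CPM in HFD fed 21 (next 40.3) and Atg2b at 58.2 CPM in Ensure fed 16 (next 52.5). Low values were Atg14 at 17.7 CPM in Ensure fasted 2 (next 21.3) and Bnip3l at 89.8 CPM in Ensure fed 1 (next 108). The part of other tissue in these values was not tested.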

How the results depend on the processing

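Over the alternatives, 27 results for single genes were recomputed 506 times; 413 kept direction and side of the threshold, 78 lost their call, 3 gained one and 12 changed sign, none of them a called gene. Fasting with HFD called 0 members, and 1 with DESeq2 and 1 without tract- or Cdh16-rich libraries. Fasting with Ensure called 5 members, and 8 with library size alone, 0 with lane as a term, 8 with the compared groups alone, 3 without tract- or Cdh16-rich libraries and 3 to 8 leaving out 1 library. Fed diets differed in 2 members, and in 1 with no filter, 0 with lane, 7 with the compared groups alone, 1 without tract-rich, 0 without tract- or Cdh16-rich libraries and 0 to 1 leaving out 1 library. Fasted diets differed in 1 member, and in 2 with library size alone, 0 with no filter, 0 with lane, 2 with DESeq2, 0 with the compared groups alone, 0 without tract-rich, 4 without tract- or Cdh16-rich libraries and 0 to 2 leaving out 1 library. Leaving out 1 library called 0 members for fasting with HFD in every case. For most of these fits the share of all genes called is not given here, so a change in these counts shows nothing particular to the members.

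Those 12 sign changes were all in the Ensure fasting contrast and within 0.05 of 0, except 1 value at -0.06; the results for single genes do not include Atg4a, whose change of sign without tract-rich libraries is given in the report. Map1lc3a was at 0.03 with library size alone, 0.01 without tract-rich libraries and between -0.11 and 0.02 leaving out 1 library. Gabarap was between -0.06 and 0.05 leaving out 1 library. Ulk1 was at -0.01 without tract-rich and -0.05 without tract- or Cdh16-rich libraries, and between -0.04 and 0.05 leaving out 1 library. The causes were not tested. No paired analysis was possible because replicate numbers are unique over the series and the groups share none.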
